A study of Saccharomyces cerevisiae with 15 samples.

Results

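The genes described here encode the small-subunit processome and the factors that carry its product on towards the mature 40S ribosomal subunit. They are 34 named genes of the 5704 in the deposited count table, picked by gene name and known function with earlier results of these data in view, and each of the 34 was found in the deposited tables. The choice itself applied no measured value. By role they comprise 4 proteins of the box C/D snoRNP (the ribonucleoprotein built on U3 and related small nucleolar RNAs), 7 of the UTP-A complex, 6 of UTP-B, 3 of the Mpp10 complex, 11 other processome factors and 3 factors of the later pre-40S particle.

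The libraries were made from budding yeast, strain YWG25, of Sigma1278b background, and the study asked how translation adapts to glucose starvation. The first group is 3 ribosome footprint and 3 poly(A)-selected RNA libraries from cells without glucose (-GLU). The second is 3 footprint and 3 RNA libraries from cells with glucose (+GLU), all 12 with the elongation inhibitor cycloheximide named in the labels. A further 3 footprint libraries are single, titled as made without cycloheximide (noCHX): a fast harvest without glucose, a fast harvest with glucose, and one without glucose whose title does not say fast. Apart from glucose, harvest and drug, the labels give all libraries the same strain, the same YPD medium and growth at 30 °C until the optical density was near 0.7, and no other allele or agent. For how long glucose was withheld is not stated in those labels. The treatment text that names cycloheximide also stands in the labels of the noCHX libraries, so the lack of the drug rests on their titles and descriptions.

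Ribosomes are assembled in the nucleolus on a long precursor RNA. The small-subunit processome forms on the 5′ end of that precursor: UTP-A binds first, UTP-B and the U3 snoRNP follow, and the Mpp10 complex joins the U3 RNA to its pairing sites, after which the precursor is folded, modified and cut. The particle that leaves is a pre-40S particle, which Rrp12 and Enp1 accompany out of the nucleus and which the nuclease Nob1 finishes in the cytoplasm. Making ribosomes is among the most costly tasks of a growing yeast cell, and the genes for it are known as a regulon that follows glucose and nitrogen supply.

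In front of these genes stand a pair of short motifs known from the promoters of ribosome biogenesis genes. PAC, searched as GATGAG, is bound by the repressors Dot6 and Tod6, and RRPE, searched as AAAAATTT, is bound by Stb3. Both were looked for on both strands in the 250 bases before each start codon in the R64 genome of the laboratory strain S288C, which is not the strain sequenced and whose relation to the authors' unstated build is unknown. The sequences shown are windows of 30 bases on the strand of the gene, 5′ to 3′, with the motif in capitals; CTCATC and AAATTTTT are the same motifs read from the other strand. They cover NSR1 and NOB1, the members with the largest and the smallest footprint change below, NOP1 and PWP2 as examples from other complexes, and 4 of the 7 members that hold 1 motif only.
NSR1 (YGR159C), PAC, chrVII:807826-807855, minus strand: ttgcaagggcagCTCATCgcaagaacgaaa
NSR1, RRPE, chrVII:807843-807872, minus strand: tttttttggtgAAAAATTTgcaagggcagc
NOP1 (YDL014W), PAC, chrIV:427148-427177, plus strand: caaattggaaagCTCATCtctcttgaatgt
NOP1, RRPE, chrIV:427127-427156, plus strand: tctttttcttgAAAAATTTttcaaattgga
PWP2 (YCR057C), PAC, chrIII:223355-223384, minus strand: gaaaaattttgcGATGAGctgaaagatgaa
NOB1 (YOR056C), PAC, chrXV:431786-431815, minus strand: tcaaaatttttcGATGAGctttgttttgca
NOB1, RRPE, chrXV:431794-431823, minus strand: atgcaagatcaAAATTTTTcgatgagcttt
RRP9 (YPR137W), PAC with no RRPE, chrXVI:802227-802256, plus strand: tgacattttataGATGAGctttgattaaac
MPP10 (YJR002W), PAC with no RRPE, chrX:438778-438807, plus strand: tttcaattttgcGATGAGctcttgaagaaa
UTP4 (YDR324C), RRPE with no PAC, chrIV:1116779-1116808, minus strand: aaaaccaaatgAAAAATTTtcagactgaca
UTP15 (YMR093W), RRPE with no PAC, chrXIII:453890-453919, plus strand: tggaataactgAAAAATTTtgaaaactttc

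GATGAG stood in the windows of 31 of 34 members (91.2%) and of 16.6% of all 5693 windows. AAAAATTT stood in 28 of 34 (82.4%) and in 13.9% of all windows. Both motifs were present in 26 members (76.5%), against 5.25% of all windows. The longer form GCGATGAG, which contains the first motif, was found in 19 members (55.9%) and in 4.04% of all windows, and AAAAATTT preceded by TG in 14 members (41.2%) and in 4.06%. In the 26 members with both, the 2 motifs lay close together: the median distance between the nearest pair was 7.5 bases, and in 25 of 26 it was at most 30 bases. The PAC match nearest to the start codon ended a median of 111 bases before it (50 to 199) and the nearest RRPE match 119.5 bases before it (27 to 217). UTP4 and UTP15 held RRPE alone. RRP9, UTP7 (YER082C), UTP13 (YLR222C), ENP2 (YGR145W) and MPP10 held PAC alone. UTP22 (YGR090W) was the 1 member with neither. Over all genes tested, the median mRNA log2 change was -1.89 where the window held both motifs and 0.07 where it did not, the members included. The 299 windows with both were those of 26 members, 30 further 40S and 45 60S assembly genes listed below, and other genes. Inside the lists the medians differed less: -2.14 with both and -1.914 without in members, -2.241 and -1.99 in further 40S genes, -2.366 and -2.175 in 60S genes. No test was made. These are matches of letters and not shown sites, and PAC and RRPE matches in a member do not overlap each other, although RRPE matches on opposite strands can.

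The replicated libraries held 2391712 to 12560502 counts, the noCHX libraries 1610986 to 30575562. The 34 genes together took 0.369%, 0.362% and 0.126% of the counts in -GLU RNA replicates 1, 2 and 3, against 1.399%, 1.203% and 1.201% in +GLU RNA. In footprints they took 0.133%, 0.104% and 0.0696% in -GLU libraries, against 0.896%, 0.924% and 0.806% in +GLU libraries. Every -GLU library thus gave them a smaller part than any +GLU library of the same kind, and -GLU replicate 3 the smallest in both kinds. The lowest count of a member in a replicated library was 10, for NSR1 in -GLU footprint replicate 3. Since no label says that replicates are separate cultures, each p-value reflects the spread among these libraries alone, part or all of which may be technical. The counts are of bulk cultures and relative to each library's total, so a change in all mRNA or all footprints per cell does not show in them. The changes below are therefore relative to the other genes.

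All 34 mRNAs fell without glucose. The median log2 change of -GLU over +GLU was -2.04, against 0.01 over the 5519 genes tested, and 21 of the 34 fell at least 4-fold. The smallest of these 21 falls was that of PWP2, 4.05-fold, and 9.66% of all genes tested had a change as low or lower. By edgeR's quasi-likelihood test, adjusted over all genes, the adjusted p-values lay between 9.81e-05 and 0.00469. Of all genes tested, 30.2% were called lower and 30.4% higher. In each of the 34 the 3 -GLU libraries lay below the 3 +GLU libraries, as they did in 33.9% of all genes. Values below are counts per 1000000 counts after TMM scaling (CPM), given for replicates 1, 2 and 3, and log2 changes stand with their SE.

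Among the box C/D snoRNP genes, NOP1, the methyltransferase known as fibrillarin in animals, had 148, 125 and 56.1 CPM in -GLU RNA, against 711, 1041 and 847 CPM in +GLU RNA. The groups did not overlap, and NOP1 mRNA fell 7.90-fold (log2 -2.98 ± 0.39, edgeR adjusted p = 0.000239). NOP56 (YLR197W) and NOP58 (YOR310C), the paired scaffold proteins that hold the methyltransferase on the guide RNA, had log2 changes of -2.98 ± 0.39 and -2.61 ± 0.36. RRP9, a protein particular to the U3 snoRNP, changed least in this class. It had 92.6, 68.9 and 54.6 CPM in -GLU RNA, against 325, 296 and 255 CPM in +GLU RNA, a log2 change of -2.02 ± 0.25.

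The 7 UTP-A mRNAs fell within a narrow band. UTP9 (YHR196W) marked the lower end at -2.69 ± 0.36, with 93.5, 93.7 and 38.0 CPM in -GLU RNA, against 432, 502 and 523 CPM in +GLU RNA. UTP15 marked the upper end at -1.89 ± 0.22, with 58.7, 55.9 and 39.7 CPM in -GLU RNA, against 206, 168 and 197 CPM in +GLU RNA. Between them lay UTP5 (YDR398W) at -2.48, UTP4 at -2.18, UTP8 (YGR128C) at -2.04, NAN1 (YPL126W) at -1.98 and UTP10 (YJL109C), the largest protein of the complex, at -1.95. All 7 are parts of the complex that binds the precursor first.

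In UTP-B the largest change was that of UTP18 (YJL069C), a WD-repeat protein that also recruits the nuclear exosome's helicase. It had 48.3, 42.9 and 22.2 CPM in -GLU RNA, against 291, 232 and 259 CPM in +GLU RNA, with a log2 change of -2.78 ± 0.31 and the lowest adjusted p of the 34. UTP6 (YDR449C) at -2.18, DIP2 (YLR129W) at -2.15, UTP21 (YLR409C) at -2.04, PWP2 at -2.02 and UTP13 at -1.94 differed from one another by less than their SEs of 0.36 to 0.42. In the Mpp10 complex the bridging protein IMP4 (YNL075W) was at -2.42 ± 0.33, IMP3 (YHR148W) at -1.97 ± 0.31 and the scaffold MPP10 at -1.77 ± 0.34.

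The remaining processome genes spanned the whole range. NSR1, the yeast relative of nucleolin, had the largest change of all members. It had 69.2, 61.2 and 14.3 CPM in -GLU RNA, against 588, 978 and 999 CPM in +GLU RNA, a 17.7-fold fall (log2 -4.14 ± 0.57, edgeR adjusted p = 0.000313). Of all genes tested, 0.598% had an mRNA change as low or lower. DBP8 (YHR169W), a helicase, and KRR1 (YCL059C), an RNA-binding protein, followed at -2.99 ± 0.39 and -2.96 ± 0.40. ENP2 was at -2.59, RRP5 (YMR229C), which acts in making both subunits, at -2.13, SOF1 (YLL011W) at -2.03, NOP14 (YDL148C) at -1.99, BFR2 (YDR299W) at -1.91, the very large scaffold UTP20 (YBL004W) at -1.86 and UTP7 at -1.70. UTP22 changed least, with 112, 111 and 53.9 CPM in -GLU RNA, against 340, 217 and 237 CPM in +GLU RNA (log2 -1.52 ± 0.32, edgeR adjusted p = 0.00295). It is the member without PAC or RRPE letters in its window, a single gene from which nothing is drawn about the motifs. Of the pre-40S factors, RRP12 (YPL012W) was at -2.43 ± 0.46, NOB1 at -1.89 ± 0.30 and ENP1 (YBR247C) at -1.79 ± 0.28.

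**Figure D1:**
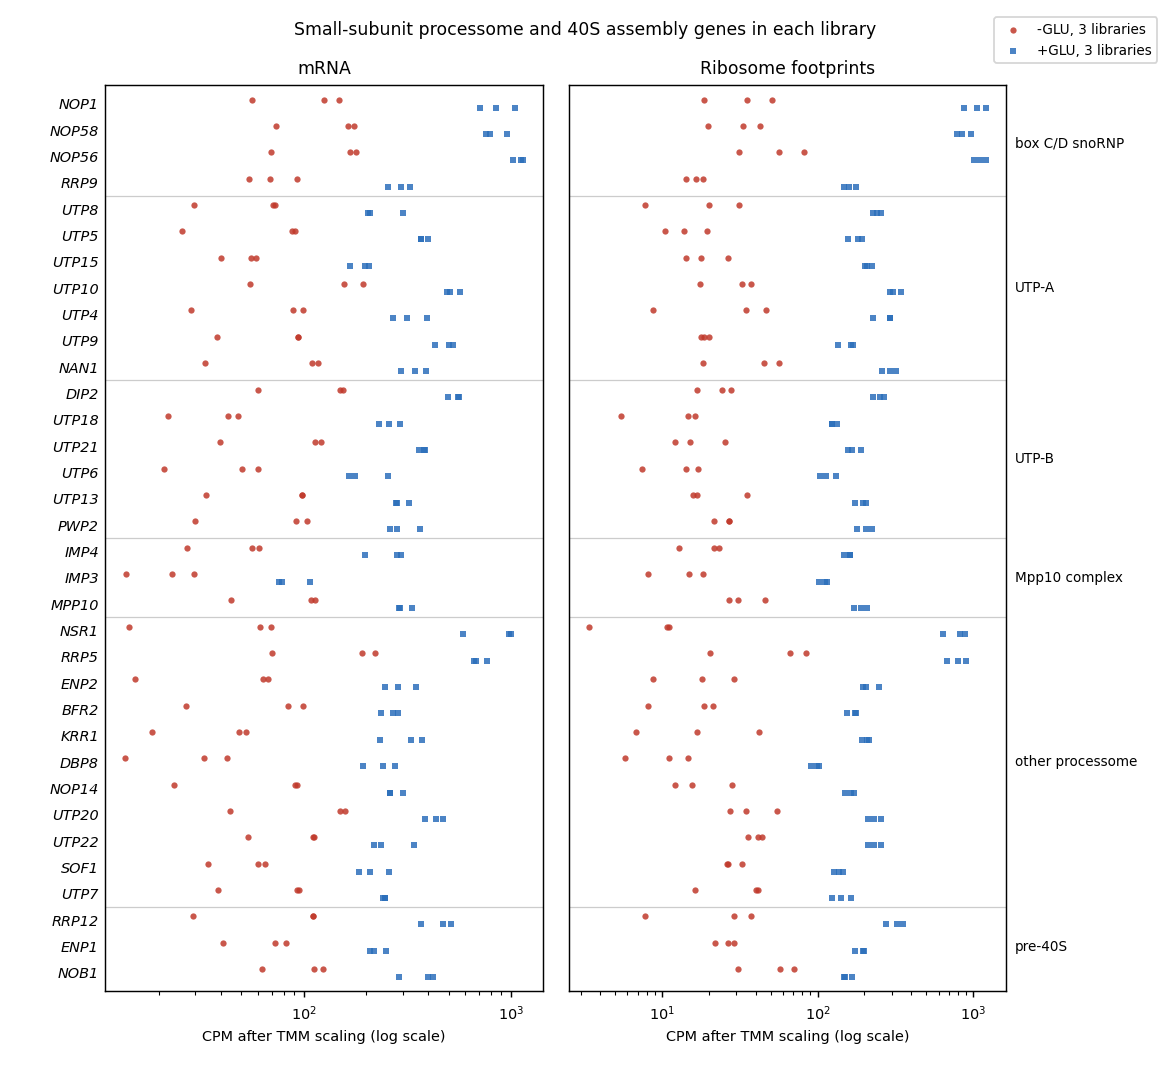
Level of each of the 34 genes in every replicated library, in CPM after TMM scaling on a log axis, for mRNA (left) and ribosome footprints (right); red circles are the 3 -GLU libraries and blue squares the 3 +GLU libraries, and genes are grouped by role. In all 34 rows of both panels the -GLU points lie to the left of the +GLU points without overlap.

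Among the starved libraries those numbered 3 stood apart, in RNA and in footprints. They and +GLU RNA replicate 1 were counted over the coding length plus 2 nt, the other libraries over that length less 24 nt. Whether this bears on the values was not tested. In -GLU RNA replicate 3 all 34 members were lower than in replicates 1 and 2. The median log2 difference from those was -1.35 (NSR1 -2.15 to UTP15 -0.52), and 43.3% of all genes were likewise lower than in both. In -GLU footprint replicate 3 the same held for 29 of 34 members, by a median over all 34 of -0.98, and for 46.1% of all genes. The 5 exceptions were RRP9, UTP9, UTP15, UTP21 and PWP2. Without -GLU RNA replicate 3 the 34 mRNAs were still called lower, with a median log2 change of -1.77, and so were 29.7% of all genes. Without -GLU footprint replicate 3 the 34 footprint changes were called lower, with a median of -3.06, as were 34.9% of all genes.

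The RNA groups also differed in preparation. Poly(A) RNA was selected on cellulose for the 3 -GLU libraries and +GLU replicate 1, and on DynaBeads for +GLU replicates 2 and 3. Among cellulose-selected libraries alone, which leave 1 +GLU library assumed to vary like the -GLU ones, the median log2 change of the members was -2.13, with 22 of 34 called lower and 16.1% of all genes. The part of the selection in the RNA values was not otherwise tested.

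All 34 members fell in footprints, 33 of them at least 4-fold and 25 at least 8-fold, with a median log2 change of -3.17, against 0.10 over the 5319 genes tested. Near these limits lay UTP7 (4.36-fold) and UTP13 (8.26-fold). Changes as low or lower were found in 11.7% and 6.88% of all genes tested. Adjusted p-values by the same edgeR test lay between 2.38e-05 and 0.00301. Of all genes tested, 31.0% were called lower and 33.8% higher. The 3 -GLU libraries lay below the 3 +GLU libraries for all 34 members, and for 35.5% of all genes.

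NSR1 again led, with 10.8, 11.0 and 3.38 CPM in -GLU footprints, against 644, 881 and 819 CPM in +GLU footprints. That is a 91.1-fold fall (log2 -6.51 ± 0.49, edgeR adjusted p = 4.23e-05), resting on 96, 31 and 10 counts in the -GLU libraries. Of genes tested, 0.113% had a change as low or lower.

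The snoRNP core followed. NOP1 had 51.1, 35.2 and 18.6 CPM in -GLU footprints, against 876, 1202 and 1066 CPM in +GLU footprints, a 29.7-fold fall (log2 -4.89 ± 0.43). NOP58 fell 27.1-fold and NOP56 19.5-fold. These had been among the most heavily translated members, and RRP9, whose +GLU footprint level per length was near the median of the members, fell 9.79-fold, with 18.3, 14.2 and 16.6 CPM in -GLU footprints, against 160, 176 and 148 CPM in +GLU footprints. In RRP9 the 3 -GLU libraries were close together, replicate 3 included.

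UTP-A and UTP-B footprints fell by similar amounts. The 7 UTP-A changes ran from -3.58 ± 0.46 in UTP8 to -2.85 ± 0.40 in NAN1, with a median of -3.41. The 6 UTP-B changes ran from -3.43 ± 0.25 in DIP2 to -3.01 ± 0.20 in PWP2, with a median of -3.20 and an SD between genes of 0.17, below the SE of each. UTP8 had 31.4, 19.9 and 7.78 CPM in -GLU footprints, against 256, 241 and 228 CPM in +GLU footprints. PWP2 had 21.5, 27.0 and 27.1 CPM in -GLU footprints, against 179, 225 and 204 CPM in +GLU footprints. In the Mpp10 complex the log2 changes were -3.02 ± 0.26 for IMP4, -2.96 ± 0.29 for IMP3 and -2.45 ± 0.25 for MPP10.

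NOB1, the nuclease that makes the final cut of the small-subunit RNA, changed least of the 34: it had 70.7, 57.7 and 30.8 CPM in -GLU footprints, against 150, 167 and 149 CPM in +GLU footprints, a 2.91-fold fall (log2 -1.54 ± 0.30, edgeR adjusted p = 0.00301). The log2 change of ENP1 was -2.87 ± 0.20 and that of RRP12 -3.65 ± 0.53, so the 3 pre-40S genes did not share 1 size of change. Of the other processome genes, RRP5 fell 13.8-fold, with 83.8, 66.9 and 20.3 CPM in -GLU footprints, against 677, 899 and 795 CPM in +GLU footprints. UTP7 (4.36-fold), SOF1 (4.79-fold), UTP22 (5.76-fold) and UTP20 (5.89-fold) fell least among them, and ENP2, BFR2, KRR1, DBP8 and NOP14 lay between -3.51 and -3.08 in log2 change.

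**Figure D2:**
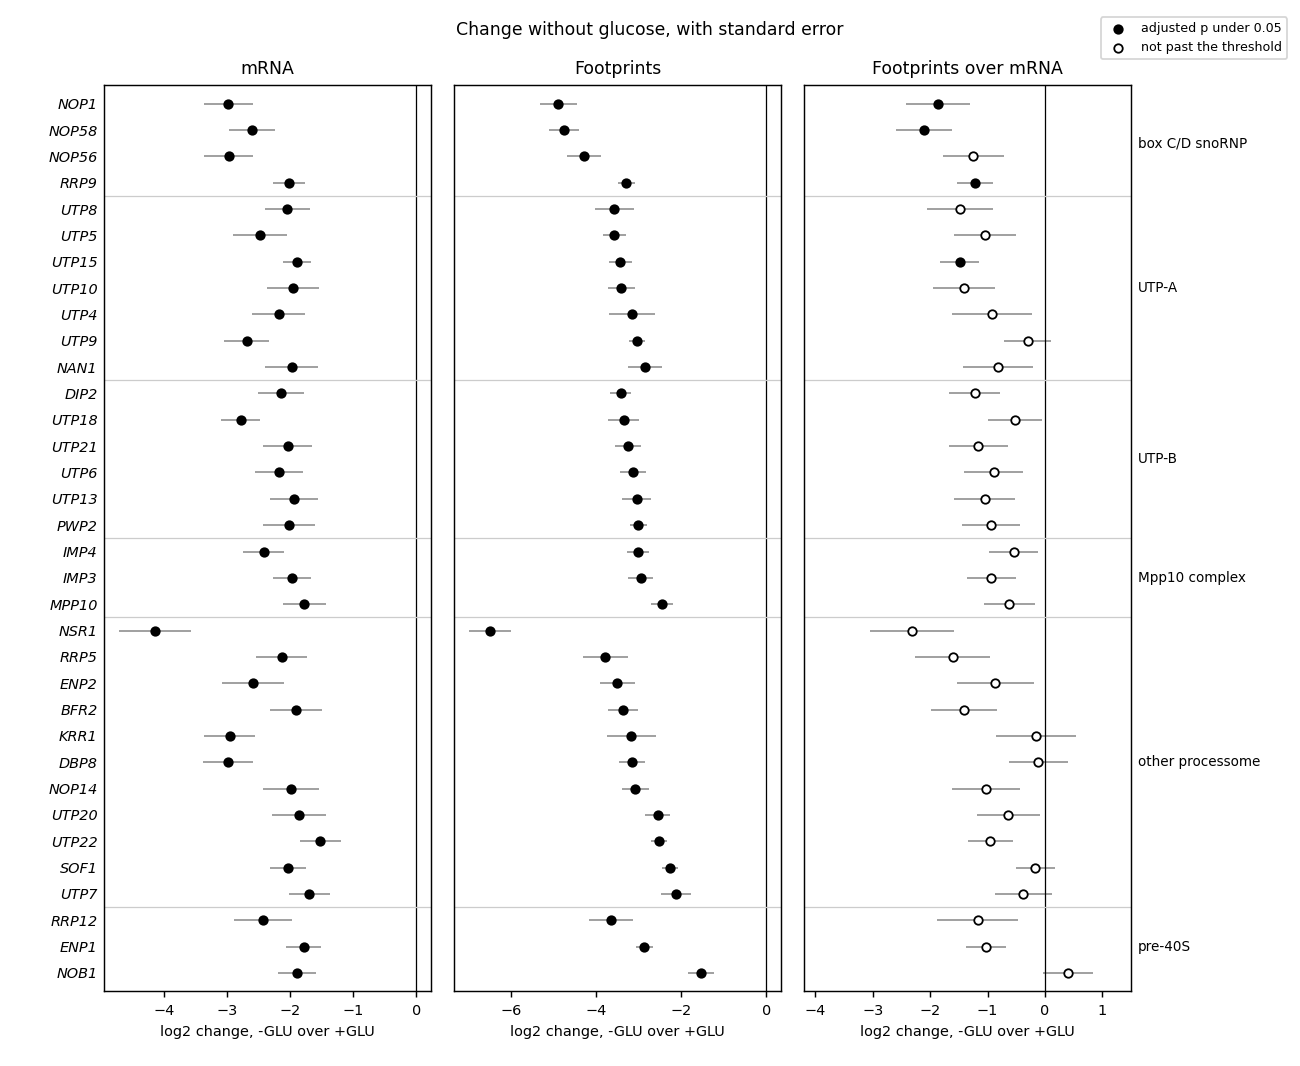
Log2 change of -GLU over +GLU for each member, with its SE as a bar, in mRNA (left), footprints (middle) and footprints over mRNA (right); filled circles passed an adjusted p of 0.05 in edgeR's quasi-likelihood test and open circles did not. All 34 circles are filled and left of 0 for mRNA and footprints, and 4 are filled for footprints over mRNA.

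**Figure D3:**
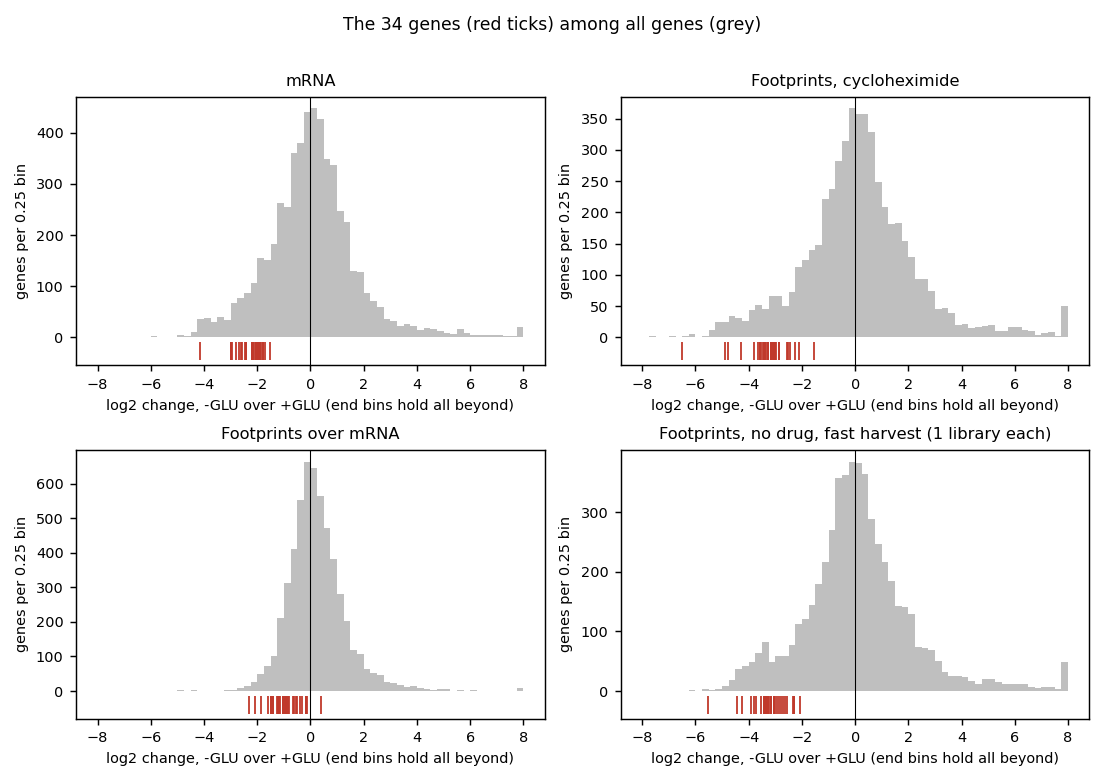
Distribution of log2 changes of -GLU over +GLU over all genes (grey bars, genes per bin of 0.25) with the 34 members as red ticks, for mRNA, footprints with cycloheximide, footprints over mRNA, and footprints of the 2 fast-harvest libraries without the drug. The ticks lie in the lower tail in the mRNA panel and both footprint panels, and they spread from -2.31 to 0.40 for footprints over mRNA.

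Levels between genes were compared per kilobase of counted length, which for NSR1 and BFR2 is not that of the annotated coding sequence. In +GLU footprints the members ranged from 31.1 CPM per kilobase for UTP20 to 1092 for NOP1, and the SD of the log2 levels between members was 1.11. In -GLU footprints they ranged from 5.23 for UTP20 to 39.0 for NOB1, with an SD of 0.81. In mRNA the same SD was 0.63 in -GLU and 0.90 in +GLU libraries. The members thus lay closer together without glucose in both kinds of library, as a description of 34 genes with no test. In footprints this rested on 4 genes: over the other 30 the SD was 0.72 in -GLU and 0.58 in +GLU libraries, and in mRNA it was 0.47 in -GLU and 0.55 in +GLU libraries.

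The 4 are NOP1, NOP56, NOP58 and NSR1, singled out after their values were seen. Each had at least 573 CPM per kilobase in +GLU footprints, against at most 221 for the other 30. Their median was 2.88 times that of the other 30 in -GLU footprints and 7.36 times in +GLU footprints. NSR1 stood at 6.84 CPM per kilobase in -GLU footprints, below the median of 9.91 of the other 30. UTP-B had the lowest spread of the 6 role classes in +GLU footprints: its highest member had 1.58 times the footprint level of its lowest in -GLU and 1.46 times in +GLU libraries. For UTP-A the same ratio was 2.72 in -GLU and 2.35 in +GLU footprints, and for the Mpp10 complex 1.33 in -GLU and 1.92 in +GLU. In the pre-40S class it was 5.74 in -GLU and 1.54 in +GLU footprints, where NOB1 stood highest and RRP12 lowest without glucose.

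**Figure D4:**
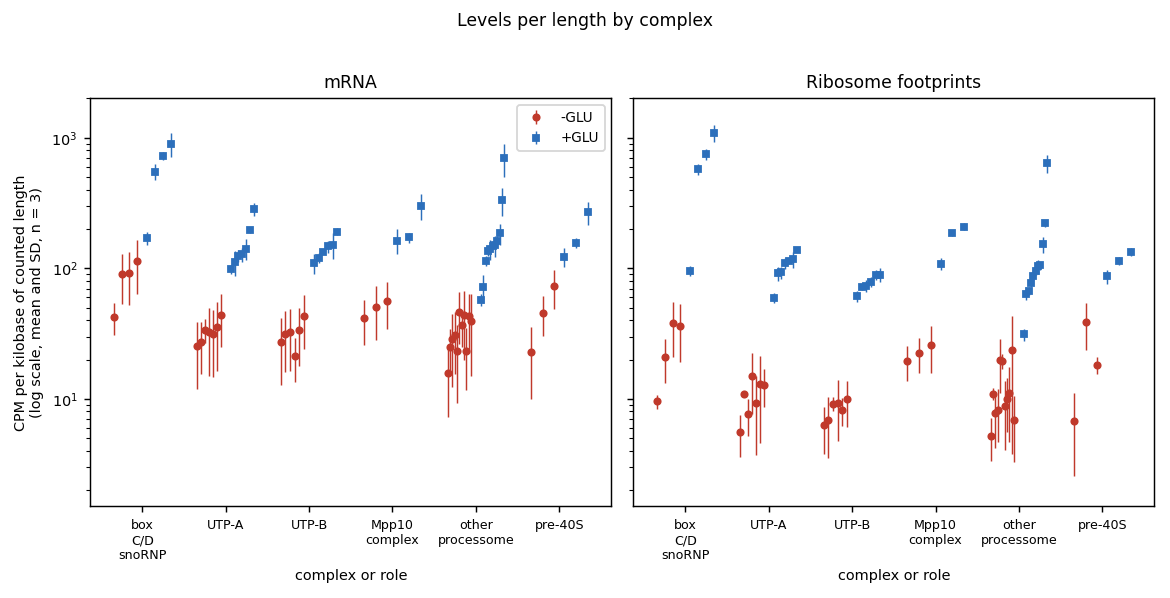
Mean level per kilobase of counted length with its SD over 3 libraries, on a log axis, by complex, for mRNA (left) and footprints (right); red circles are -GLU and blue squares +GLU, each point a gene ordered by its +GLU level. UTP-B spans 1.58-fold in -GLU and 1.46-fold in +GLU footprints, and the box C/D snoRNP 3.97-fold in -GLU and 11.5-fold in +GLU footprints.

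Translational efficiency, the footprint level over the mRNA level, was taken as the interaction of assay and glucose in 1 edgeR model over the 12 libraries. In 33 of 34 members the log2 change was below 0, with a median of -0.99, against 0.13 over the 5509 genes tested. Of the 34, 4 were called lower and 0 higher, where 4.48% of all genes were called lower and 9.24% higher. At an unadjusted p under 0.05, 15 were lower and 0 higher, where 11.5% of all genes were lower and 19.1% higher. DESeq2 called 11 lower and 0 higher, and 9.53% of all genes lower and 10.1% higher. The 4 were NOP58 (-2.10 ± 0.49, edgeR adjusted p = 0.0169), NOP1 (-1.86 ± 0.56, adjusted p = 0.0455), UTP15 (-1.49 ± 0.34, adjusted p = 0.0147) and RRP9 (-1.22 ± 0.31, adjusted p = 0.0246), so 3 of the 4 are snoRNP proteins.

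In NOP58 the log2 ratio of footprints to mRNA was -1.23, -1.72 and -1.17 in -GLU replicates 1, 2 and 3, against 0.74, 0.67 and 0.72 in +GLU replicates. The groups were well apart. UTP15 had -1.01, -1.28 and 0.17 in -GLU replicates, against 0.75, 0.98 and 0.70 in +GLU replicates. Its -GLU replicate 3 thus lay between the other -GLU replicates and the +GLU values. RRP9 had -1.63, -1.58 and -0.98 in -GLU replicates, against -0.38, -0.08 and -0.12 in +GLU replicates.

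The other 30 did not pass the threshold. NSR1 had the lowest value at -2.31 ± 0.73 (edgeR adjusted p = 0.0524), and NOB1 the highest at 0.40 ± 0.44 (adjusted p = 0.562). NOP56 was at -1.25, RRP5 at -1.60, UTP8 at -1.48, UTP10 at -1.40 and BFR2 at -1.41. DBP8 (-0.12), KRR1 (-0.15) and SOF1 (-0.17) lay nearest to 0, and DBP8 and KRR1 were among the largest changes in mRNA. UTP-B had values from -1.23 in DIP2 to -0.52 in UTP18, the Mpp10 complex from -0.93 in IMP3 to -0.54 in IMP4.

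The count of 4 depended on which libraries entered. It was 26 of 34 without -GLU RNA replicate 3 (11.0% of all genes then being called lower), 2 without +GLU RNA replicate 3 (1.66%), 2 without -GLU footprint replicate 2 (2.58%) and 1 without +GLU footprint replicate 2 (1.38%). It was 23 without both -GLU libraries numbered 3 (10.1% of all genes) and 0 with cellulose-selected RNA only (1.01%), where 8 were lower at an unadjusted p under 0.05 by edgeR (12.9% of all genes). In -GLU libraries the deviations of same-numbered footprint and RNA libraries correlated at 0.57, 0.379 and 0.60. Pairs that cross replicates 1 and 2 stood at 0.373 and 0.186, and pairs of replicate 3 with these between -0.598 and -0.328. The values set replicate 3 apart, and pair replicates 1 and 2 by number less clearly. A block for the replicate number within each glucose state, chosen after seeing the data, called 17 members lower and 11.1% of all genes. The member median stayed between -1.51 and -0.77 in these and the remaining alternatives. Scaling by total counts in place of TMM moved the median of all genes by 0.14 in mRNA, 0.44 in footprints and 0.23 in efficiency, and 30 of 34 members were then below 0 in efficiency.

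As levels, the 34 members had a median log2 ratio of footprints to mRNA of -0.85 without glucose and 0.02 with it. Over all genes the median was 0.07 without glucose and -0.04 with it. Without glucose all 34 lay below the all-gene median; with glucose 14 lay below and 20 above. IMP3 had the highest ratio in both states, 0.03 in -GLU and 0.99 in +GLU libraries. The lowest was NSR1 at -1.81 in -GLU libraries and UTP9 at -0.98 in +GLU libraries.

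Without cycloheximide the fast-harvest libraries gave the same direction for each member. There is 1 library a state and so no test; a gene was called past a 2-fold difference, and intervals cover counting error only. All 34 members were at least 2-fold lower and 24 at least 8-fold. Of 5375 genes, 24.7% were at least 2-fold lower and 25.9% at least 2-fold higher. The smallest of the 24 falls was that of ENP1, 8.15-fold, and 6.6% of all genes had a ratio as low or lower. The median log2 ratio was -3.27, against -0.01 over all genes. NSR1 had 252 counts (exact 95% Poisson interval 222 to 285) in the -GLU library, against 33108 (32752 to 33467) in the +GLU library, a log2 ratio of -5.52 after TMM scaling. NOP58 was at -4.44 and NOP1 at -4.24, and NOB1 was again the smallest, at -2.06 with 300 counts in -GLU, against 3570 in +GLU. UTP6 had the lowest -GLU count, 75, and a ratio of -3.92. Set beside the cycloheximide change, 19 members had a smaller fall without the drug and the median difference was 0.07 (-0.79 to 0.99).

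The 5 starved footprint libraries were set side by side, scaled among themselves, so that these CPM differ slightly from those above. In the fast harvest 13 members lay above the range of the 3 cycloheximide libraries, 18 inside and 3 below, against 25.2%, 43.8% and 31.0% of all genes. In the noCHX library not titled fast, 23 lay above and 11 inside, and 0 below, against 31.0%, 34.9% and 34.1% of all genes. NSR1 had 33.3 CPM in the fast harvest and 19.1 CPM in the other noCHX library, against 11.7, 12.3 and 3.81 CPM with cycloheximide. PWP2 had 22.9 CPM in the fast harvest and 73.9 CPM in the other noCHX library, against 23.2, 30.3 and 30.5 CPM with cycloheximide. NOB1, at 39.7 and 45.2 CPM, lay inside its cycloheximide range of 34.6 to 76.3 CPM. Over the fast harvest, the other noCHX library was higher in 27 members and lower in 7, with a median log2 ratio of 0.27. Over all genes that median was -0.02, with quartiles of -0.593 and 0.429. Its depth of 1610986 counts put the least covered member, IMP4, at 24 counts. With glucose, 23 members lay above the cycloheximide range in the fast harvest, 10 inside and 1 below, against 32.7%, 32.4% and 35.0% of all genes. In both states more members lay above the cycloheximide range than below it. In -GLU footprints replicate 3 was the low end of that range for 29 of 34 members and for 46.1% of all genes. The -GLU counts below the range are therefore not alike for members and all genes. Between the fast harvests and the cycloheximide libraries, harvest method and drug cannot be told apart. Both noCHX libraries without glucose lack the drug by title and differ there in harvest, each a single library with no test.

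**Figure D5:**
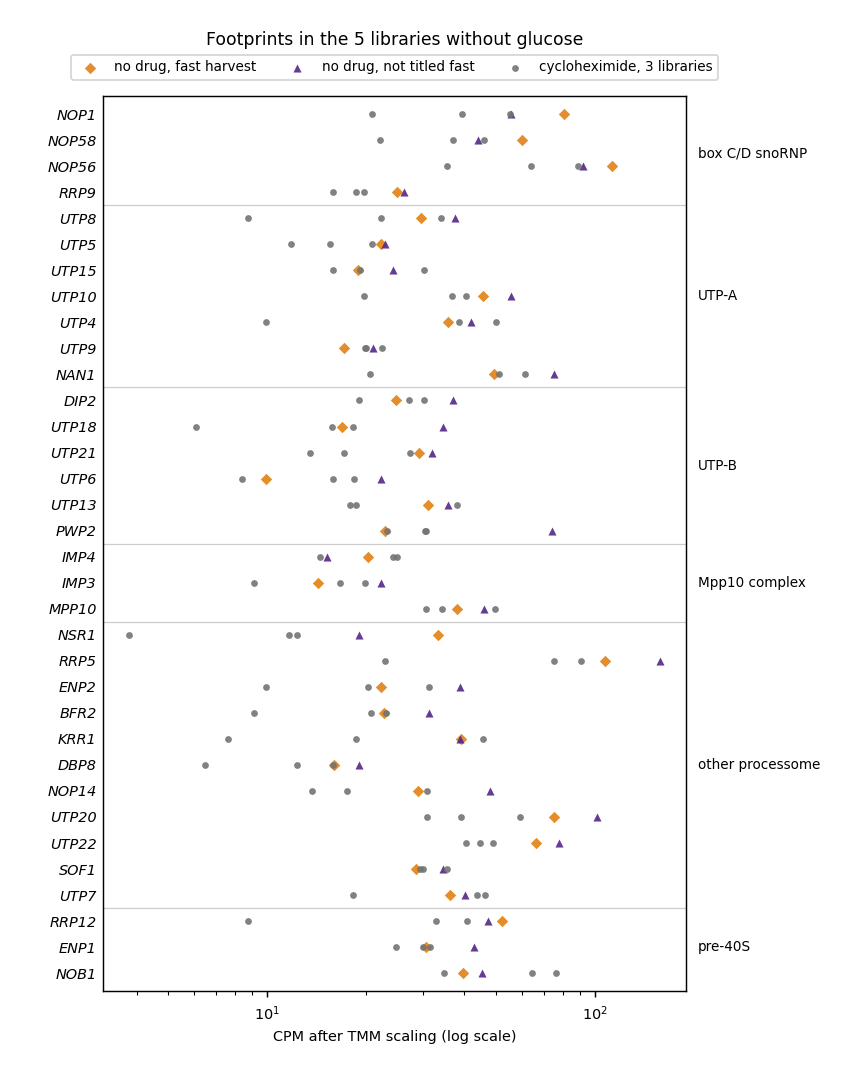
Footprint level of each member in the 5 libraries without glucose, in CPM after TMM scaling on a log axis; orange diamonds are the fast harvest without cycloheximide, purple triangles the other library without the drug and grey circles the 3 cycloheximide libraries. In 23 rows the purple triangle lies to the right of the 3 grey circles, farthest in PWP2.

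Most other assembly genes, listed by known function, fell as well. Of 45 further 40S assembly factors, 43 were called lower in mRNA and 43 in footprints, with median log2 changes of -2.18 and -2.85. Of all genes, 30.2% were called lower in mRNA and 31.0% in footprints. SNU13, the protein that nucleates the box C/D snoRNP, was lowest in both, at -4.01 ± 0.39 in mRNA and -4.42 ± 0.31 in footprints. After it in mRNA came FAF1 (-3.16), UTP23 (-3.15), LCP5 (-2.99) and TSR2 (-2.92). In mRNA those that did not pass were the kinase genes RIO1 (0.05 ± 0.25) and HRR25 (0.32 ± 0.21), and in footprints RRP7 (-0.67 ± 0.28), the partner of Utp22, and HRR25 (-0.36 ± 0.20). In translational efficiency RIO1, PRP43 and ESF1 were called lower and FCF1, a nuclease-fold processome protein, higher at 1.10 ± 0.33 (edgeR adjusted p = 0.046), with a list median of -0.48. These are 3 of 45 lower and 1 of 45 higher, beside 4.48% lower and 9.24% higher over all genes. Of 59 factors of 60S assembly, 58 were called lower in mRNA (median -2.36) and 59 in footprints (median -3.19), and 1, NOP2, was called lower in efficiency (median -0.71). The share of windows with both motifs was 66.7% in the further 40S list and 76.3% in the 60S list.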

How the data were processed

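Per the labels' protocols, footprints of about 28 nt were made with 50 U of RNase I from 50 OD units of extract, and cycloheximide was used at 100 µg/ml; rRNA subtraction is described for all footprint libraries and +GLU RNA replicates 1 and 2. The authors deposited raw counts per gene as whole numbers, and beside them RPKM. For -GLU RNA replicates 1 and 2 the deposited values are classed with expected counts, since 1 entry in each is not whole; that gene was left out and no rounding was needed, leaving 5703 genes. The deposited RPKM values served to find the counted length. It was the coding length less 24 nt in 12 libraries and plus 2 nt in 3. Those 3 were -GLU RNA replicate 3, -GLU footprint replicate 3 and +GLU RNA replicate 1. This held within 0.5 nt in 93.12% to 93.85% of genes with over 20 counts. Of the members the counted length differed for NSR1 (1250 nt implied, 1245 nt annotated) and BFR2 (1632 nt implied, 1605 nt annotated), whose levels use the implied length. Which aligner, genome build and strand setting were used is not given in the sources used here. None of the members overlaps another annotated gene.

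The tests were run in edgeR 4.0.16 under R 4.3.3 (quasi-likelihood F test, TMM, filterByExpr with a minimum count of 10, Benjamini-Hochberg at 0.05 over all genes), and DESeq2 1.42.0 was an alternative. SE is the size of the log2 change over the square root of F. The noCHX ratios use genes with 10 or more counts in either library and a prior count of 2. A floor of 3 counts corresponds to 0.239 to 1.25 CPM in the replicated libraries. Without molecular identifiers, floors and intervals describe counting error alone. Replicates differed beyond sampling noise in every pair (chi-square per degree of freedom 9.22 to 378). Promoter windows were cut from the R64 genome, in place of a promoter table that was planned. The fits were tested on simulated data, but no outcome of that is given here and no result rests on it. Members and gene lists were chosen with earlier results of these data known. Genes named are the lowest and highest change in each role, members that did not pass, and from the further 40S list the 5 lowest and those that did not pass or went the other way; all members may be named with a level or change.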

Additional observations from a re-analysis of the deposited data

How the results depend on the processing

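In mRNA and footprints the 34 members kept their direction under each alternative run, and all 34 were called lower in each but 1: with cellulose-selected RNA only, 22 were called, of 1764 genes called (895 lower). Of the 34 translational efficiency changes, DESeq2 called 11 lower (525 genes lower), total counts 137 genes lower, cellulose-selected RNA only 0 members (145 genes, 56 lower), and leaving out both -GLU libraries numbered 3 called 23 (1378 genes, 557 lower). Lower calls made up 32.7% of the efficiency calls as reported, 48.4% with DESeq2 and 15.1% with total counts, and 47.8% of footprint calls as reported against 33.2% with total counts. Leaving out 1 library at a time gave 1 to 26 members (273 to 1034 genes, 76 to 609 lower). The cause was not tested.

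Uncalled efficiency values changed sign: with total counts DBP8 was at 0.05339, KRR1 at 0.0008952 and SOF1 at 0.02706, and with cellulose-selected RNA only NOB1 was at -0.1663. With 1 library left out, DBP8 ranged from -0.6665 to 0.149, KRR1 from -1.117 to 0.2538 and NOB1 from -0.0488 to 0.6665. Adjusted p over the alternatives ranged from 0.00138 to 0.113 for NOP1, from 0.000145 to 0.0789 for NOP58, from 0.00153 to 0.0948 for RRP9 and from 0.000163 to 0.0829 for UTP15. Without cycloheximide, total counts gave a median log2 ratio of -2.941.

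Correlations of so few libraries cannot settle whether the labels' equal replicate numbers pair the glucose states. Same-numbered deviations correlated at -0.0905, -0.148 and -0.00538 in RNA and 0.0681, 0.0478 and 0.0527 in footprints. Differently numbered ones lay between -0.07 and 0.16 in RNA and between -0.178 and 0.121 in footprints. With the replicate block, 34 members were called lower in mRNA (28.4% of all genes), 34 in footprints (29.9%) and 6 in efficiency (4.74%). Within a state, same-numbered RNA and footprint libraries correlated at 0.57, 0.379 and 0.60 in -GLU and at 0.0868, 0.134 and 0.0703 in +GLU libraries. Differently numbered -GLU pairs stood at 0.373 and 0.186 across replicates 1 and 2, and between -0.598 and -0.328 where replicate 3 took part. Differently numbered +GLU pairs lay between -0.146 and 0.0751. A block within each glucose state, chosen after seeing the data, called 17 members lower (1431 genes, 610 lower). Depth limits NSR1 most, with 10 counts in 1 -GLU footprint library.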
